A study of Mus musculus with 25 samples.

Results

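RET and D4M are murine melanoma cell lines with different driver alterations, and their transcriptomes were compared here across all measured genes. The samples were chosen by the cell line named in the labels, which gave 10 of the 25 samples of the series, 5 of RET and 5 of D4M. RET cells come from MT/RET transgenic mice, in which the human RET proto-oncogene, a receptor tyrosine kinase, is driven by the mouse metallothionein-I promoter. D4M cells come from mice with the alleles Tyr::CreER and BrafCA, in which a Cre recombinase under the tyrosinase promoter can be switched on with tamoxifen, so that melanocytes express an activated Braf. RET was grown in RPMI 1640 with 10% fetal calf serum and D4M in Advanced DMEM/F-12 with 5% fetal calf serum and glutamine, so that line and medium cannot be told apart. No drug was given, and all cells were harvested at a confluency of 50%. Each genotype is represented by a single line, and the 5 samples of a line are labelled biological replicates, so that p-values measure the spread between cultures of these lines and not between tumours of these genotypes.

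Melanocytes arise from the neural crest, and their identity is held by the transcription factors Mitf, Sox10 and Pax3, which switch on the enzymes and structural proteins of the melanosome, the organelle in which melanin is made. Melanoma cells can lose this program and take on features of neural crest or mesenchymal cells, a change often called dedifferentiation. Active Braf and receptor tyrosine kinases both signal through the ERK cascade, which also switches on its own inhibitors, among them the Sprouty, Spred and Dusp proteins.

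The 10 libraries held from 24199083 to 25679885 counts over all genes. Levels are given as CPM, counts brought to a common library total with scaling by the trimmed mean of M-values, in the order of the replicate numbers, and comparisons as the log2 fold change of RET over D4M from a single fit over all genes and all 25 libraries. Pairs of libraries of 1 line had log2 CPM values that correlated across genes with 0.986 or more (RET) and 0.983 or more (D4M), and a RET with a D4M library with 0.703 to 0.727. Markers of leukocytes, endothelium and keratinocytes were mostly near 0 in both lines: 3 of 10 leukocyte, 4 of 10 endothelial and 2 of 10 keratinocyte markers were abundant enough to be tested, and Ptprc, the pan-leukocyte phosphatase, had a mean of 0.0313 CPM in RET and 0.0533 CPM in D4M. Of 10 smooth muscle and pericyte markers 5 were tested, 3 called higher and 2 lower in RET, with summed levels from 117 to 240.3 CPM in RET and from 209.6 to 338 CPM in D4M, and fibroblast and Schwann cell markers are given with the genes they moved with.

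D4M replicate 1 stood apart from the other D4M libraries. Over 218 genes with a mean under 0.2 CPM in the other D4M libraries and of at least 20 CPM in another line, its profile was fitted with 0.294% of the mean RET profile. In D4M replicates 2 to 5 this share lay between 0.0228% and 0.0393%, over 188 to 198 genes chosen anew for each library by the same rule. For these libraries the rule leaves out genes that replicate 1 raised to a mean of 0.2 CPM or more. D4M replicate 5 had the highest fitted share of another line among these 4, 0.0753% of the HCmel12 profile, and it also held more Tyrp1, Dct and Sox10 than replicates 2 to 4. Mbp, which encodes myelin basic protein and is abundant in RET, had 4.32 CPM in D4M replicate 1 and between 0 and 0.133 CPM in the other D4M libraries, against 1595, 1604, 1272, 1434 and 1483 CPM in the RET libraries. B16F10 luc2 and WT31, other lines of the series, had mean levels of only 0.824 and 0.681 CPM of Mbp, while HCmel12 had 709.5 CPM. In the RET libraries the fitted share of the D4M profile was at most 0.0267%. How this RNA came into the library was not tested. Low D4M levels that replicate 1 raises by over 1.5 times are given below for each library, as a limit, or with and without it.

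Of 15247 genes tested, 11757 (77.1%) differed between the lines at an adjusted p under 0.05 (limma with voom weights), 5911 (38.8%) higher and 5846 (38.3%) lower in RET. At least a 2-fold difference was found for 2809 of the higher and 3166 of the lower genes, and at least a 32-fold difference for 482 and 933. Without D4M replicate 1, 11625 genes were called, 5773 higher and 5852 lower, and 11421 genes were called with the same sign both times. A total of 566 genes called higher in RET had at most 3 counts in every D4M library (645 when replicate 1 is set aside), and 754 genes called lower had at most 3 counts in every RET library. For 20 of the called genes all 10 libraries held at most 3 counts, and for these no fold is given. The median log2 fold change over all tested genes was 0.01, and scaling by library size alone shifted it to 0.21 and the calls to 7220 higher and 4775 lower. Counts of called members in the gene lists below are to be read against these shares, and since a gene expressed in a single line passed the filter on low counts through that line alone, the count over tested members is no share of all members. The reference genes of the study's qPCR differed little, Gak by a log2 fold change of -0.35 and Srp72 by -0.20.

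**Figure D1:**
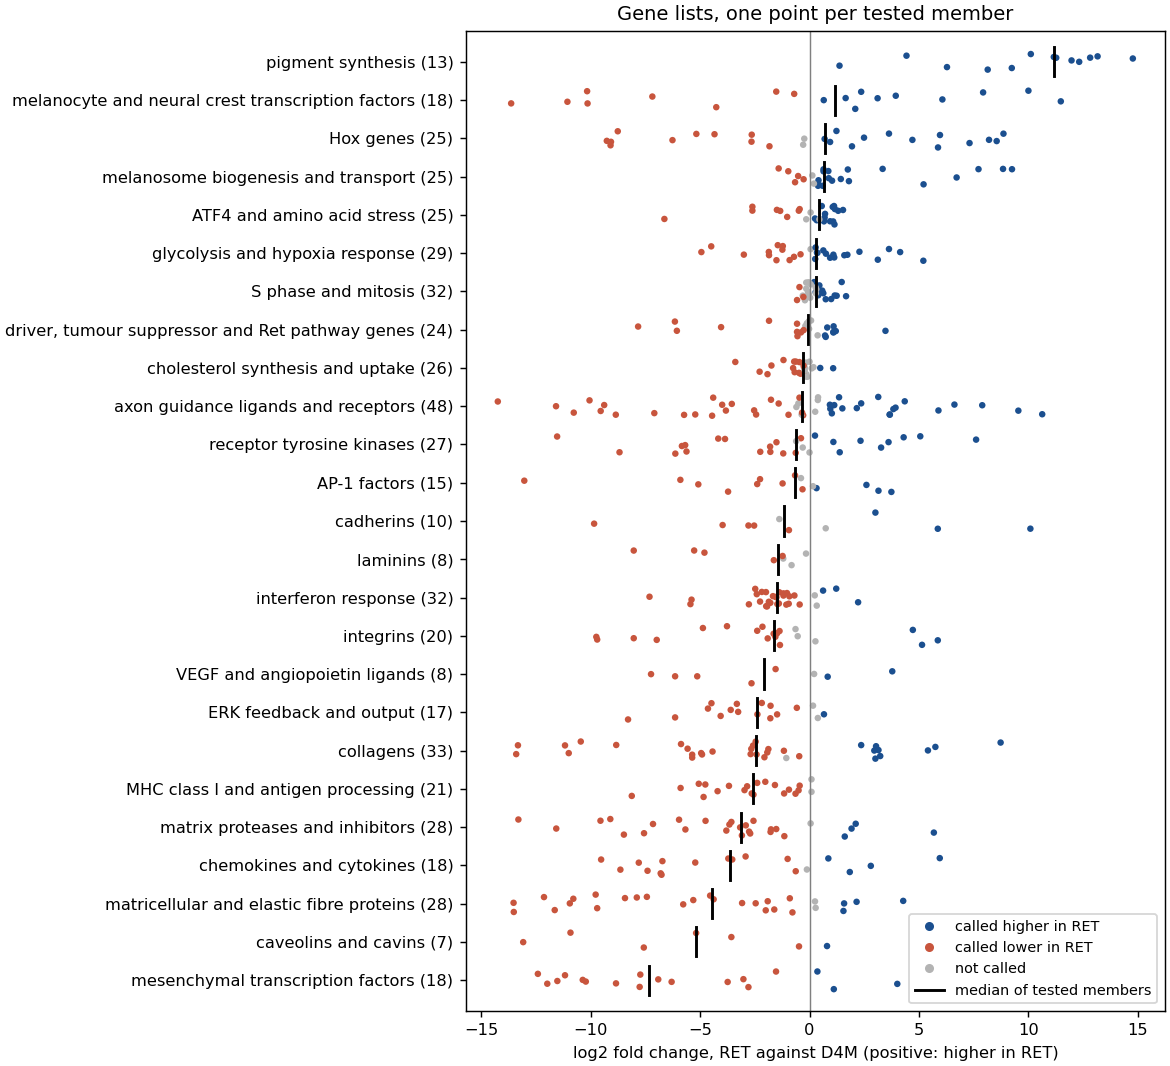
Log2 fold change of RET over D4M (x axis) for each tested member of the gene lists (rows, with the number of tested members in parentheses), coloured by whether the gene was called higher or lower in RET, with the median as a black bar. The pigment synthesis genes lie on the right with a median of 11.16, and the mesenchymal transcription factors on the left with a median of -7.32.

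Genes of pigment synthesis had the highest median of the 32 gene lists. All 13 listed members were tested, and 13 of 13 were called higher in RET (38.8% of all tested genes were), also without D4M replicate 1, with a median log2 fold change of 11.16 against 0.01 over all genes. For 13 of 13 all D4M libraries lay below every library of the other 4 lines (11.5% of all tested genes). RET lay above all other lines for 0 of them (5.19% of all tested genes). Tyrosinase (Tyr), the rate-limiting enzyme of melanin synthesis, was measured at 225, 195, 185, 243 and 244 CPM in the RET libraries and at 0.806, 0.0460, 0, 0 and 0.172 CPM in the D4M libraries. The lines did not overlap, and every D4M library stayed under 1 CPM. In bulk RNA, fewer cells that express a gene and less of its RNA per cell cannot be told apart. The log2 fold change of Tyr was 11.27 ± 0.91 (SE, limma, adjusted p = 1.4e-11), and 12.05 without D4M replicate 1. Tyrosinase-related protein 1 (Tyrp1), which stabilises tyrosinase and acts on later intermediates, had the highest fitted log2 fold change among the genes eligible to be named. It was measured at 7875, 7497, 9277, 9200.3 and 8378 CPM in RET and at 27.0, 0.0444, 0, 0 and 2.85 CPM in D4M. Among the D4M libraries only replicates 1 and 5 held more than 0.1 CPM of it, and the log2 fold change was 14.77 with all libraries and 16.35 without replicate 1. Dopachrome tautomerase (Dct), the enzyme that works between these, was measured at 3613, 3022, 3380.2, 3968 and 3586 CPM in RET and 10.7, 0.0958, 0.134, 0.0906 and 1.19 CPM in D4M, 1438-fold apart in the mean and 9297-fold without replicate 1.

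The structural and transport proteins of the melanosome showed the same contrast. Pmel, which forms the fibrils on which melanin is laid down, had 2922 ± 371 CPM (SD, n = 5) in RET and 0.403 ± 0.215 CPM (SD, n = 4) in D4M replicates 2 to 5, and 8.77 CPM in D4M replicate 1. Mlana, a melanosomal protein used as a diagnostic antigen, was measured at 987, 980.0, 996, 1019 and 1025 CPM in RET, at 3.26 CPM in D4M replicate 1 and at no more than 3 counts in the other D4M libraries, against which RET was at least 7592-fold higher. The transporters Slc45a2 and Slc24a5, both linked to skin colour, had mean levels of 413 ± 26.5 and 484 ± 35.8 CPM (SD, n = 5) in RET against 0.219 ± 0.418 and 2.04 ± 1.36 CPM (SD, n = 5) in D4M, and 0.0324 ± 0.0409 and 1.48 ± 0.661 CPM (SD, n = 4) in D4M without replicate 1. For Slc24a5, 40.2% of the 31-base sequences of its transcripts also occur in other genes, so that its count is uncertain. The melanocortin receptor Mc1r, through which melanocyte-stimulating hormone acts, was measured at 227, 188, 207, 238 and 193 CPM in RET and at 0.828, 0.0889, 0.132, 0 and 0 CPM in D4M. Gpr143, a receptor of the melanosome membrane, had no count in any D4M library and was at least 186-fold higher in RET. Oca2, a further melanosomal transporter, was low in RET as well, at 2.14 ± 0.305 CPM (SD, n = 5), and at least 16.1-fold above D4M. Trpm1, a cation channel of melanocytes, was measured at 56.9 ± 8.85 CPM (SD, n = 5) in RET and at no more than 0.260 CPM in any D4M library.

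Gpnmb and Atp7a were clearly present in both lines. Gpnmb, a glycoprotein of melanosomes and lysosomes, was measured at 265, 229.7, 262, 153 and 189 CPM in D4M and 4347, 4903, 4842, 4816 and 4359.9 CPM in RET (log2 fold change 4.43 ± 0.12 SE, limma, adjusted p = 1.6e-21). Atp7a, the copper pump that loads tyrosinase and is used by many cell types, differed by a log2 fold change of only 1.37, from 15.4 ± 2.46 CPM in D4M to 39.4 ± 2.97 CPM in RET (SD, n = 5 each). Per transcript length, Tyrp1 had a level of 5844 TPM (a unit that takes transcript length into account) in RET, ahead of Dct at 2713, Pmel at 2112 and Tyr at 78.5 TPM (means of 5 libraries).

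The regions before the start sites of these genes are shown because several share a short sequence that is known as the core of the M-box, to which Mitf binds. Both strands of 300 bases per promoter (250 before and 50 after the start, RefSeq, build GRCm38.p6) were searched for TCATGTG or its reverse complement CACATGA, which also contain an E-box (CANNTG). Of the 13 pigment genes 9 had a promoter in the table, and 6 of these (66.7%) held the motif, namely Tyr, Tyrp1, Dct, Slc24a5, Mc1r and Trpm1, while Oca2, Gpnmb and Atp7a did not. The motif was present in 4.31% of all 27025 genes with a promoter, in 3.04% of the genes called higher and in 2.52% of the genes called lower in RET. Among the genes that build and move melanosomes, described below, 1 of 21 with a listed promoter held it (4.76%, Hps1). The 200 bases before the start are printed from 5′ to 3′ on the strand of the gene, with the motif in capitals. It begins 22 bases before the start in Tyr (chr7:87493513-87493712, reverse strand), 47 in Tyrp1 (chr4:80834013-80834212, forward strand), 151 in Dct (chr14:118052247-118052446, reverse strand) and 52 in Mc1r (chr8:123406882-123407081, forward strand). The searched bases of Dct held 2 matches, of which 1 lies in the printed stretch.
Tyr: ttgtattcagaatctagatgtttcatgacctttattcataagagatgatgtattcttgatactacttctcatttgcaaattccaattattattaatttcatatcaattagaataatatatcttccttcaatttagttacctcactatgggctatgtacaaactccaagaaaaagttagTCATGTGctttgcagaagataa
Tyrp1: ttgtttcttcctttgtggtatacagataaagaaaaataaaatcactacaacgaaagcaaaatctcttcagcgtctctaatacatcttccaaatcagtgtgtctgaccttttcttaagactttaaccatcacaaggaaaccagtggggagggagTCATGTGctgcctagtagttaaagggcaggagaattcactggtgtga
Dct: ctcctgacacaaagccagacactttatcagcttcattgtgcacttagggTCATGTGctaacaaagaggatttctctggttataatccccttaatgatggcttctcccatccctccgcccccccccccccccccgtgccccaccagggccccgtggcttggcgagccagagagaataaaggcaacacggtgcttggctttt
Mc1r: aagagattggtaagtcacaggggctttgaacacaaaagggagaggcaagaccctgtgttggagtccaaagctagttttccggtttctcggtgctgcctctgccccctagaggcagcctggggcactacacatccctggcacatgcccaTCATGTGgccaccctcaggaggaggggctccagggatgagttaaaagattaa
A match of letters is a description and not a measured binding site.

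Of 25 genes that build and move melanosomes, all tested, 18 were called higher and 5 lower in RET, with a median log2 fold change of 0.64. Rab27a, the GTPase that tethers melanosomes to actin, was measured at 197, 156, 153, 196 and 175 CPM in RET and 0.505, 0.178, 0.268, 0.178 and 0.298 CPM in D4M. Rab38, which carries tyrosinase and Tyrp1 to the melanosome, had 344 ± 18.7 against 0.854 ± 0.560 CPM (SD, n = 5 each; 0.643 ± 0.346 CPM, n = 4, in D4M without replicate 1), and the linker Mlph, which joins Rab27a to myosin, 593 ± 55.0 against 15.96 ± 1.12 CPM. The subunits of the AP-3 and BLOC-1 complexes, which sort proteins to lysosome-related organelles in many cell types, moved by far less. Ap3b1 had a log2 fold change of 0.39 and Bloc1s2 of 0.64, Bloc1s6 was lower in RET at -1.41, and Bloc1s4 and Lyst did not pass the test (log2 fold changes 0.13 and 0.20, limma, adjusted p = 0.27 and 0.14).

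The transcription factors of melanocytes and neural crest were split between the lines. Of 22 members 18 were tested, and 10 of these were called higher and 8 lower in RET (median 1.15). Sox10, required for the melanocyte and glial lineages, was measured at 615, 484, 545, 557 and 533 CPM in RET and at 2.07, 0.133, 0.0445, 0 and 0.511 CPM in D4M (chr15:79154908-79165240, reverse strand). The lowest RET library lay far above the highest D4M library, and the log2 fold change was 11.48 with all libraries and 12.32 without D4M replicate 1. Mitf, the master regulator of pigment genes, was measured at 453, 337, 429, 467 and 482 CPM in RET and was still present at 6.98, 5.91, 6.19, 6.26 and 6.56 CPM in D4M (log2 fold change 6.07 ± 0.23 SE, limma, adjusted p = 1.6e-18). D4M replicate 1 was the highest D4M library for Mitf, by a small margin. Pax3, which acts upstream of Mitf, had 168, 172, 186, 188 and 197 CPM in RET and 22.6, 21.1, 21.01, 19.98 and 20.2 CPM in D4M, 8.67-fold apart in the mean. Tfap2a, a partner of Mitf at pigment genes, differed far less, with a log2 fold change of 0.65. Alx1 and Lmx1b, homeobox factors of the facial and limb mesenchyme, were found at 51.9 ± 2.26 and 9.95 ± 0.845 CPM in RET and at 0.1004 ± 0.202 and 0.0364 ± 0.0605 CPM in D4M (SD, n = 5 each). Without D4M replicate 1 these D4M means were 0.0106 ± 0.0213 and 0.0106 ± 0.0213 CPM (SD, n = 4).

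D4M expressed other neural crest factors that were absent from RET or far lower in it. Sox2, a factor of stem and early neural cells, had no count in any RET library and was measured at 236, 276, 271, 256 and 200.3 CPM in D4M, at least 2124-fold higher. Foxd3 and Msx1, which specify early neural crest, also had no count in any RET library and reached 22.04 ± 2.54 and 22.7 ± 4.88 CPM in D4M (SD, n = 5 each), at least 189-fold and 195-fold higher. Tfap2b, a relative of Tfap2a, was measured at 0.0790, 0.186, 0.0788, 0.0400 and 0.218 CPM in RET and 238, 245, 282, 289 and 268 CPM in D4M. Sox9, active in early neural crest and cartilage, was present in both lines at 3.85 ± 1.21 CPM in RET and 71.8 ± 10.1 CPM in D4M (SD, n = 5 each, log2 fold change -4.26). Among the other lines, Sox2 had a mean of 10.5 CPM in WT31 and Tfap2b of 129.9 CPM in HCmel12, while Foxd3 stood at 0 in B16F10 luc2, 38.7 in WT31 and 13.64 CPM in HCmel12.

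Schwann cells share the neural crest origin of melanocytes, and of 10 of their markers 6 were called higher and 2 lower in RET. Mbp, a myelin gene, reached 1478 ± 136 CPM in RET (SD, n = 5), while Egr2, the factor that drives myelination, was at 0.0851 ± 0.04997 CPM (SD, n = 5). Gap43 was higher in D4M and at least 272-fold above RET. Their part in the difference of lineage factors was not tested.

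Mesenchymal transcription factors were mostly higher in D4M. Of 20 members 18 were tested, and 15 of these were called lower and 3 higher in RET, with a median of -7.32 (-6.59 with each gene absent from a line set to its bound of 3 counts). The 3 higher in RET were Tbx2, Foxc1 and Zeb2, with log2 fold changes of 4.01, 1.11 and 0.36. Twist1, an inducer of epithelial to mesenchymal transition, had no count in RET and 78.6, 99.2, 74.5, 70.5 and 72.4 CPM in D4M, at least 677-fold more. Prrx1, a homeobox factor of limb mesenchyme, was measured at 0, 0.0743, 0.0788, 0.0400 and 0.116 CPM in RET and 383, 358, 340.2, 363 and 414 CPM in D4M. Tbx3 and Foxc2 followed at 79.8 ± 12.7 and 46.0 ± 10.7 CPM in D4M (SD, n = 5 each), at least 683-fold and 394-fold above RET. Hmga2, a chromatin protein of embryonic tissue, was abundant in both lines and 13.1-fold higher in D4M, at 1316 ± 68.0 against 100.2 ± 22.9 CPM.

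**Figure D2:**
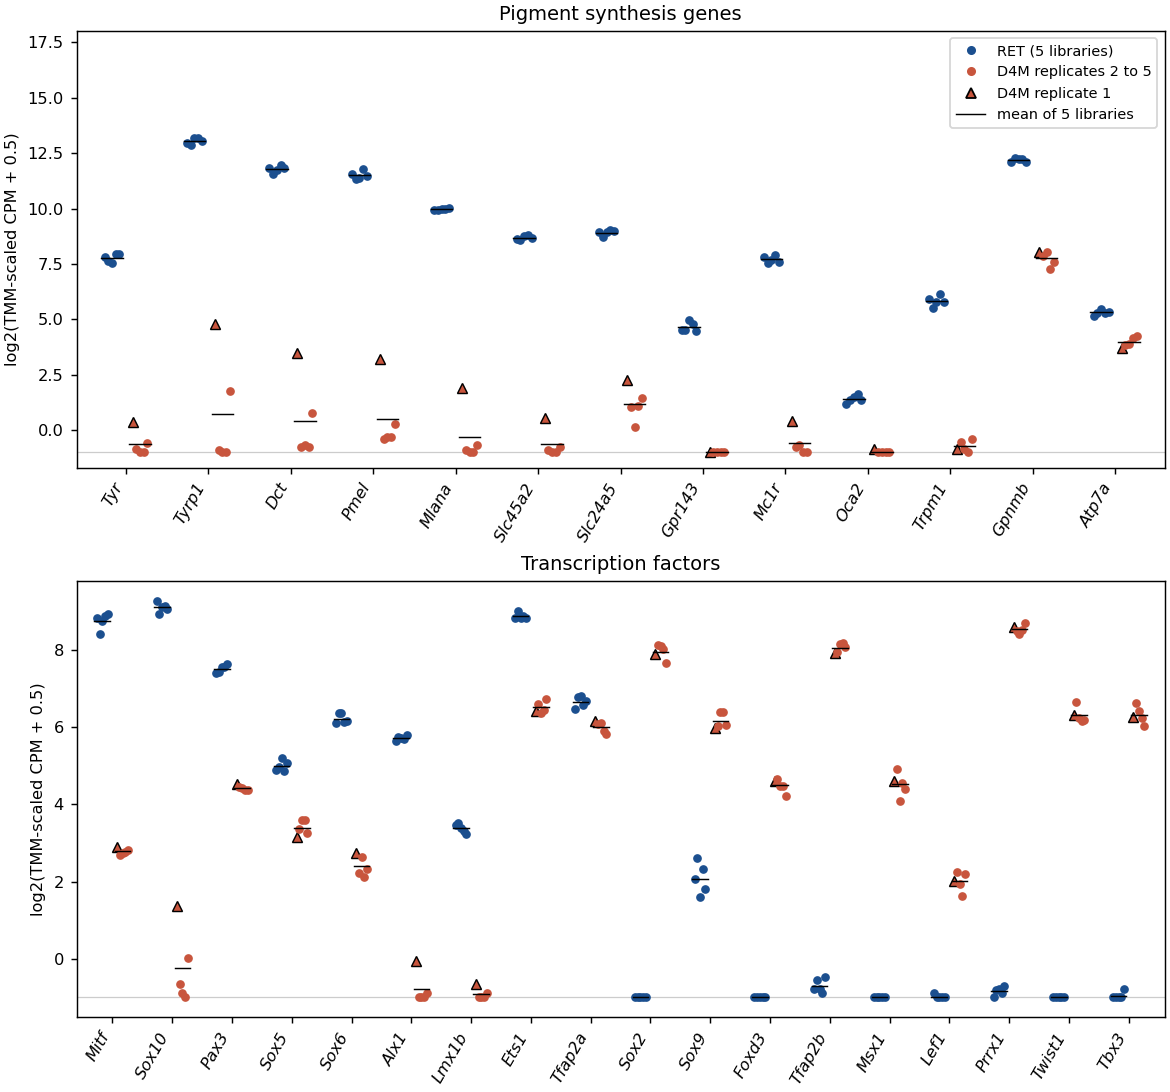
Levels of pigment synthesis genes (top) and of lineage and mesenchymal transcription factors (bottom) as log2(CPM + 0.5) for every library of RET (blue circles) and D4M (red circles, replicate 1 as outlined triangles), with the mean as a line. The grey line marks 0 counts. D4M replicate 1 lies above the other D4M libraries for Tyrp1 (27.0 CPM), Dct, Pmel, Mlana and Sox10, and it is only slightly the highest D4M library for Mitf and Pax3.

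Genes of the extracellular matrix were mostly higher in D4M. Of 33 tested collagen genes (of 41 listed) 23 were called lower and 9 higher in RET (median -2.46), of 28 matricellular and elastic fibre genes (of 35) 22 lower and 4 higher (median -4.46), of 8 laminins (of 11) 5 lower and 0 higher (median -1.43), and of 28 matrix proteases and their inhibitors (of 32) 23 lower and 4 higher (median -3.13). Collagen VI, which forms beaded microfibrils around cells, was represented by Col6a2 with no count in RET and 149.6, 270.0, 152, 233 and 216 CPM in D4M, and by Col6a1 and Col6a3 at 406 ± 109 and 773 ± 158 CPM in D4M against 0.399 ± 0.409 and 1.73 ± 0.606 CPM in RET. Col18a1, the source of endostatin, was measured at 0.711, 0.780, 0.945, 0.840 and 1.47 CPM in RET and 2104, 2423, 2209, 2087 and 1987 CPM in D4M. The fibrillar collagen chains Col3a1 and Col5a2 were measured at 371, 650.3, 227, 490.2 and 622 and at 265, 330.4, 189, 250.04 and 295 CPM in D4M, and all RET libraries stayed under 1 CPM of either. Other fibrillar chains differed less, Col1a1 by a log2 fold change of -2.66, and Col2a1 and Col11a2 were higher in RET (3.04 and 3.23). The collagens higher in RET were low in level, Col9a1, a chain of cartilage collagen, being the most different at 9.46 ± 1.17 CPM against no count in D4M, and Col15a1, a basement membrane collagen, reaching 20.2 ± 7.93 against 3.85 ± 1.12 CPM (SD, n = 5 each).

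Osteopontin (Spp1), a secreted ligand of integrins and Cd44, was measured at 19078, 18350.3, 19449, 17816 and 16458 CPM in D4M and at 2.21, 5.42, 17.4, 2.68 and 10.3 CPM in RET (log2 fold change -11.64 ± 0.31 SE, limma, adjusted p = 1.4e-21). The RET libraries spread widely for this gene and all lay far below D4M. Thrombospondin 2 (Thbs2) and biglycan (Bgn), an inhibitor of vessel growth and a matrix proteoglycan, were measured at 797, 749, 784, 799 and 856 and at 1579, 1749, 1893, 1771 and 1789 CPM in D4M, and at no more than 0.386 and 0.579 CPM in any RET library. Tenascin C (Tnc), fibrillin 1 (Fbn1) and the adhesion protein Tgfbi had log2 fold changes of -9.77, -9.70 and -10.95. Fibronectin (Fn1) and Sparc were expressed by both lines, at 264 ± 108 and 762 ± 112 CPM in RET and 2125 ± 307 and 4183 ± 346 CPM in D4M (SD, n = 5 each). Against the direction of the group, fibulin 1 (Fbln1) was 18.6-fold higher in RET, at 225 ± 17.6 against 12.1 ± 3.79 CPM. Ccn2, a target of the Hippo and TGF-beta pathways, did not pass the test (log2 fold change 0.25, limma, adjusted p = 0.57) and spread from 3.78 to 25.9 CPM within D4M.

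Markers of fibroblasts were also higher in D4M. Of 10 such markers 6 were tested, and 6 of 6 were called lower in RET (7 of 7 without D4M replicate 1), but 3 of the 6, Col1a1, Col1a2 and Col3a1, are collagens counted above as well. The list had summed levels between 31.8 and 102 CPM in RET and between 714 and 1394 CPM in D4M. Col1a2 and Pdgfra were measured at 294, 406, 282, 392 and 396 and at 56.2, 78.3, 57.2, 50.3 and 55.2 CPM in D4M, whereas the defining markers Dcn, Lum, Dpt and Thy1 were near 0, at means of 0.334, 0, 0.160 and 0.547 CPM in D4M. Their part in the matrix result was not tested.

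Among the proteases, the stromelysins Mmp3 and Mmp10, which cut many matrix proteins, were detected in D4M and not in RET. Mmp3 had no count in any RET library and 201, 161, 221, 207 and 197 CPM in D4M, at least 1690.4-fold more, and Mmp10 had no count in RET and 87.0, 34.3, 57.8, 51.9 and 80.0 CPM in D4M, at least 533-fold more. Of the 31-base sequences of these transcripts, 14.6% (Mmp3) and 11.9% (Mmp10) also occur in other genes, so that some of their counts were divided by the quantification. Urokinase (Plau) was measured at 1.10, 1.52, 2.72, 1.12 and 2.89 CPM in RET and 1447, 855, 1548, 1692 and 1138 CPM in D4M, and its receptor Plaur at 18.6 ± 2.39 and 161 ± 33.0 CPM (SD, n = 5 each). Of the protease inhibitors, Timp1 was at 588 ± 83.3 CPM in D4M and 4.13 ± 0.774 CPM in RET, and Timp3 at 362 ± 68.5 against 30.2 ± 3.36 CPM (SD, n = 5 each), while Timp4 was higher in RET.

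The promoters of Mmp3, Mmp10 and Plaur are shown because they hold the letters of the AP-1 element. Whether AP-1 factors act on these genes was not tested. The element was searched as TGACTCA or its reverse complement TGAGTCA on both strands of the same 300 bases. Of 21 proteases and inhibitors with a listed promoter, 5 (23.8%) held it, Mmp3, Mmp10 and Plaur among them, together with Mmp12 and Mmp13, which were too low in these lines to be tested. It was present in 5.95% of all genes with a promoter, in 5.62% of the genes called lower and in 4.28% of the genes called higher in RET. Of the other searched lists with a lower median in RET, it was found in 1 of 32 collagen genes (3.12%), in 0 of 20 matricellular genes and in 7 of 23 chemokine and cytokine genes (30.4%). Of these 7, Il11 and Lif were called lower and Ccl27a and Cxcl10 higher in RET, and the other 3 were not tested. The element begins 46 bases before the start in Mmp3 (chr9:7445622-7445821, forward strand), 63 in Mmp10 (chr9:7502142-7502341, forward strand) and 69 in Plaur (chr7:24462283-24462482, forward strand), printed as before with the element in capitals.
Mmp3: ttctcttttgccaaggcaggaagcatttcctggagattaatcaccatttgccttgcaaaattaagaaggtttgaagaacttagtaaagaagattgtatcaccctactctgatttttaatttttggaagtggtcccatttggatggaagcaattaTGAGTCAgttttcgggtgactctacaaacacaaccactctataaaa
Mmp10: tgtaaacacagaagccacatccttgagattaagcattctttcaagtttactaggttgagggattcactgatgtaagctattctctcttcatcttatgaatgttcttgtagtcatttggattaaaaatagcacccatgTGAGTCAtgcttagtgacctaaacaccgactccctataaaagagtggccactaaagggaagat
Plaur: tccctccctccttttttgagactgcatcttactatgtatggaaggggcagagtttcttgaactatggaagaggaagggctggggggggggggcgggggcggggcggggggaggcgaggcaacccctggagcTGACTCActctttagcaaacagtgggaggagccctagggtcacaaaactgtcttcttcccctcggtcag

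AP-1 is a dimer of Fos, Jun and related proteins. Of 15 tested AP-1 genes, 9 were called lower and 4 higher in RET (8 and 3 without D4M replicate 1). Fosl1, a Fos relative induced by lasting ERK activity, was measured at 0, 0, 0, 0.0800 and 0 CPM in RET and 262, 247, 238, 196 and 188 CPM in D4M, at least 1938-fold higher. Its level is uncertain, since 54.5% of its 31-base sequences are shared with other genes. Fosl2, Jun and Junb were present in both lines and higher in D4M, at 113 ± 22.8, 204 ± 50.6 and 71.2 ± 29.4 CPM in D4M against 8.54 ± 1.78, 38.4 ± 6.68 and 14.2 ± 2.70 CPM in RET (SD, n = 5 each). Fos itself did not pass the test (log2 fold change -0.39, limma, adjusted p = 0.31), and Atf3, a stress-induced member, was higher in RET at 2.60.

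Genes that report and restrain ERK signalling were mostly higher in D4M. Of 17 tested members, 14 were called lower and 1 higher in RET, with a median of -2.38, and the same counts were found without D4M replicate 1. Dusp5, a phosphatase of nuclear ERK, was measured at 0.237, 0.371, 0.236, 0.191 and 0.309 CPM in RET and 84.6, 147, 82.9, 88.4 and 59.1 CPM in D4M. Spry4, an inhibitor of the cascade, was measured at 1.62, 2.93, 3.43, 2.24 and 2.08 CPM in RET and 180.2, 243, 161, 188 and 105 CPM in D4M (log2 fold change -6.14 ± 0.45 SE, limma, adjusted p = 1.9e-12). The ranges of both genes were far apart, although the D4M libraries themselves spread widely for each. The ETS factors Etv1, Etv4 and Etv5, induced by ERK, had log2 fold changes of -3.60, -4.64 and -3.26. Cyclin D1 (Ccnd1), which drives entry into the cell cycle, was measured at 2382, 2269.9, 2742, 2396 and 2108 CPM in D4M and 207, 241, 308, 222 and 222 CPM in RET. Dusp6, a phosphatase of cytoplasmic ERK, differed little, with a log2 fold change of -0.58. Dusp4 and Myc did not pass the test (0.16 and 0.38, limma, adjusted p = 0.17 and 0.083), and Phlda1, an ERK and stress response gene, was the member called higher in RET, at 172 ± 29.4 against 109 ± 20.3 CPM (SD, n = 5 each).

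**Figure D3:**
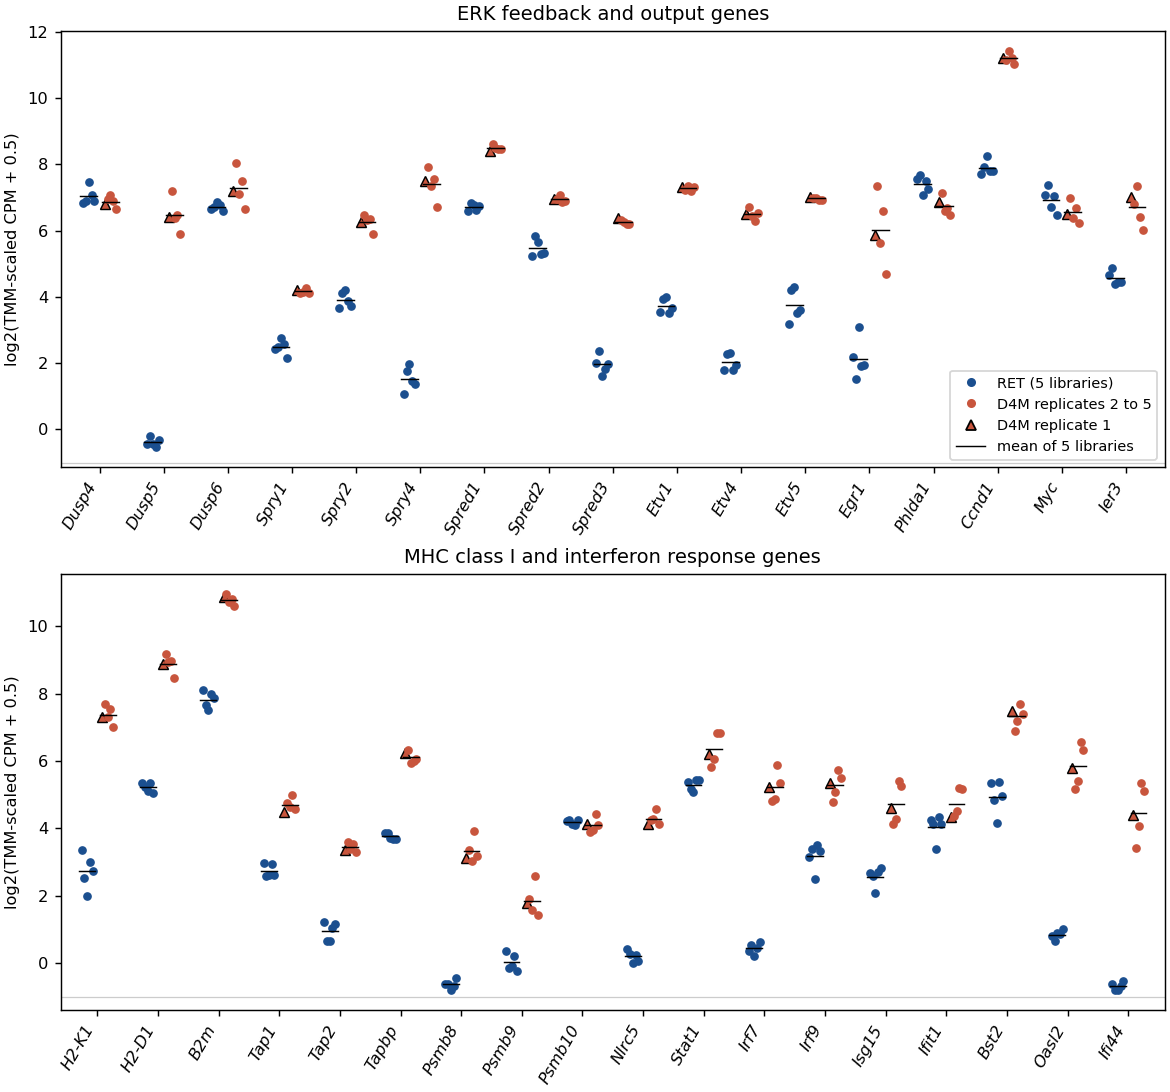
Levels of ERK feedback and output genes (top) and of MHC class I and interferon response genes (bottom) as log2(CPM + 0.5) for every library of RET (blue) and D4M (red, replicate 1 as triangles), with the mean as a line. Of the 17 genes in the upper panel 14 were called lower in RET, while the lines overlap for Dusp4, Dusp6, Myc and Phlda1.

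The genes behind the driver alterations were measured as follows. Mouse Ret held at most 3 counts in every library of both lines, and since reads were assigned to the mouse genome, the human RET transgene itself was not measured here. Mt1, the gene whose promoter drives the transgene, was measured at 627, 584, 472, 583 and 597 CPM in RET and 267, 317, 302, 219 and 236 CPM in D4M (log2 fold change 1.10 ± 0.15 SE, limma, adjusted p = 2e-07). Gfra1, the co-receptor of Ret for the ligand Gdnf, was on the side of D4M, at 218, 188, 296, 249 and 240.3 CPM against 2.61, 4.05, 4.06, 3.04 and 3.01 CPM in RET. Gdnf, Gfra2 and Gfra4 were also called lower in RET, and so was Artn, another Ret ligand, with a log2 fold change of -4.04. Nrtn and Pspn, ligands of the same family, were higher in RET (3.47 and 1.09). Braf was measured at 52.4, 62.4, 56.9, 55.6 and 54.8 CPM in RET and 24.7, 27.2, 26.3, 27.4 and 26.5 CPM in D4M (log2 fold change 1.09 ± 0.07 SE, limma, adjusted p = 3.5e-13). Araf, the related kinase on the X chromosome, and the cell cycle kinase Cdk4 did not pass the test (-0.02 and -0.03, limma, adjusted p = 0.78 and 0.56), and both were called higher in RET with library size alone. Nf1, an inhibitor of Ras, was slightly lower in RET (-0.27) and higher in the fits of TPM. The locus of the cell cycle inhibitors Cdkn2a and Cdkn2b gave almost no counts in both lines, with at most 3 counts of Cdkn2a and no count of Cdkn2b in any of the 10 libraries, against 203 and 11.4 CPM in HCmel12. Of this list of 26 genes 24 were tested, 8 were called higher and 10 lower in RET, and its median of -0.08 became 0.13 with library size alone. Cdkn2a, with at most 3 counts in any of these libraries, is among the 10 called lower.

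Receptor tyrosine kinases were found on both sides. Of 34 members 27 were tested, and 9 of these were called higher and 15 lower in RET (median -0.63), with 5 called higher when the fit held only these lines. Axl, a receptor often high in dedifferentiated melanoma, was measured at 1216, 1283, 1248, 1161 and 1183 CPM in D4M and 11.1, 18.2, 33.6, 13.4 and 17.2 CPM in RET. Flt1, a receptor of VEGF known mainly from vessels, was measured at 171, 189, 218, 199.6 and 221 CPM in D4M and at no more than 0.193 CPM in RET, while Kdr, the main VEGF receptor of vessels, had at most 0.178 CPM in any library of either line. Egfr reached 12.5 ± 2.30 CPM in D4M and was at least 107-fold higher there, and Fgfr1 and Epha2 were 56.7-fold and 48.3-fold higher in D4M. Erbb3, a neuregulin receptor of the melanocyte and Schwann cell lineages, was measured at 92.4, 91.8, 112, 94.8 and 96.0 CPM in RET and 0.551, 0.444, 0.312, 0.533 and 0.596 CPM in D4M (log2 fold change 7.61 ± 0.36 SE, limma, adjusted p = 2.1e-16). Met, the receptor of hepatocyte growth factor, did not pass the test, at 98.0 ± 15.3 CPM in RET and 121 ± 13.3 CPM in D4M (SD, n = 5 each).

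The ligands of the Egfr family were then looked at as a whole family, chosen after their values were seen. Of 11 members 8 were tested, 6 called lower and 2 higher in RET. Ereg and Areg, which bind Egfr, were measured at 226, 328, 204, 236 and 188 CPM and at 197, 202, 217, 213 and 166 CPM in D4M and at no more than 3 counts in any RET library, at least 2026-fold and 1704-fold higher in D4M. Hbegf and Btc had log2 fold changes of -5.19 and -9.63, and the neuregulin Nrg1 was at least 206-fold higher in D4M. Tgfa was measured at 18.6, 20.3, 24.5, 17.3 and 18.5 CPM in RET and 1.42, 0.888, 1.74, 0.488 and 0.894 CPM in D4M, opposite to the other tested ligands except Egf (1.37).

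Most integrins, the receptors that tie cells to the matrix, were also higher in D4M. Of 20 tested integrins (of 25) 14 were called lower and 3 higher in RET (median -1.60). Itga3, a laminin receptor chain, was measured at 529, 482, 684, 471 and 468 CPM in D4M and 0.474, 0.594, 1.496, 0.4001 and 0.424 CPM in RET, and Itga7, another laminin receptor chain, was under 0.4 CPM in every RET library and at 195 ± 32.6 CPM (SD, n = 5) in D4M. Itgb4, the partner of Itga6 in hemidesmosomes, stood on the other side at 49.9, 55.1, 56.7, 49.6 and 47.9 CPM in RET and 1.24, 2.18, 1.56, 1.24 and 1.19 CPM in D4M, and Itga9 was 59.5-fold higher in RET. Itga4, the chain of the receptor for Vcam1, did not pass the test (0.27, limma, adjusted p = 0.086). Of 10 tested cadherins (of 20) 5 were called lower and 3 higher in RET. Cdh19, a cadherin of the glial and melanocyte lineages, was higher in RET (89.2 ± 7.55 against 0.0900 ± 0.0919 CPM, and 0.0551 ± 0.0560 CPM in D4M without replicate 1) and Cdh6 in D4M (236 ± 43.3 against 0.333 ± 0.293 CPM), while Cdh2, the N-cadherin of mesenchymal cells, was present in both (log2 fold change -0.94). Of 7 tested caveolin and cavin genes (of 8), which build the caveolae of the cell surface, 6 were called lower and 1 higher in RET. Cavin3 was measured at 215, 242, 191, 208 and 196 CPM in D4M and was at least 1801-fold higher there, and Cav1 was measured at 777, 1036, 579.9, 711 and 780.3 CPM in D4M and 3.20, 3.12, 4.53, 4.68 and 4.78 CPM in RET.

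Axon guidance genes, which also act on vessels and migrating cells, were divided. Of 54 members 48 were tested, and 19 of these were called higher and 23 lower in RET (median -0.35). The ligands Sema3a and Sema5a were measured at 402, 413, 442, 469 and 413 and at 290.4, 300.03, 296, 323 and 389 CPM in D4M and under 0.5 CPM in every RET library. Slit3 had no count in RET and was at least 182-fold higher in D4M, while Robo1, a receptor of Slit proteins, was measured at 51.4 ± 4.01 CPM in RET and 0.0937 ± 0.121 CPM in D4M (SD, n = 5 each), and at 0.0460 ± 0.0667 CPM (SD, n = 4) in D4M without replicate 1. The netrin receptor Unc5c was measured at 109, 133, 126, 117 and 134 CPM in RET and 0.827, 0.0444, 0, 0 and 0.0851 CPM in D4M, and its relative Unc5b was 36.3-fold higher in D4M. Plexins, the receptors of semaphorins, were also divided, Plxnd1 and Plxnc1 being higher in RET (log2 fold changes 3.66 and 6.62) and Plxna2 and Plxna4 in D4M (-9.38 and -9.54). Of 8 tested VEGF, angiopoietin and angiopoietin-like genes (of 10) 5 were called lower and 2 higher in RET (6 and 3 of 9 tested without D4M replicate 1). Those called lower include Angptl2 and Angptl4 (-2.65 and -7.24), which are angiopoietin-like genes and not angiopoietins. Vegfa was 2.94-fold and Pgf 61.4-fold higher in D4M, Vegfc, a ligand of lymphatic vessels, was 13.8-fold higher in RET, and Angpt2 did not pass the test (0.21, limma, adjusted p = 0.11, and limma, adjusted p = 0.034 without D4M replicate 1).

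Genes of antigen presentation by MHC class I were mostly higher in D4M. Of 21 tested genes 19 were called lower and 0 higher in RET, with a median of -2.56. B2m, the light chain shared by all class I molecules, was measured at 274, 201, 181, 253 and 235 CPM in RET and 1874, 1993, 1680.0, 1796 and 1558 CPM in D4M (log2 fold change -2.97 ± 0.10 SE, limma, adjusted p = 3.8e-19). The class I heavy chain gene H2-K1 was measured at 9.72, 5.31, 3.51, 7.48 and 6.22 CPM in RET and 157, 207, 158, 187 and 129 CPM in D4M, and H2-D1 had a log2 fold change of -3.68. Heavy chain genes resemble each other, and 53.0% of the 31-base sequences of H2-Q4 also occur in other genes, so that the split of counts among them is uncertain. Nlrc5, the transactivator of class I genes, was measured at 0.653 ± 0.130 CPM in RET and 19.1 ± 2.68 CPM in D4M (SD, n = 5 each), and the peptide transporters Tap1 and Tap2 had log2 fold changes of -2.02 and -2.85. Psmb10, a subunit of the immunoproteasome, and Tapbpl, a peptide editor, did not pass the test (log2 fold change 0.09 for each, limma, adjusted p = 0.36 and 0.5). Of 32 interferon response genes, 27 were called lower and 3 higher in RET (median -1.49). Irf7, which amplifies the type I response, was measured at 0.790, 0.965, 0.669, 0.880 and 1.04 CPM in RET and 37.2, 27.9, 28.6, 58.1 and 40.0 CPM in D4M, and the antiviral gene Oasl2 at 1.31 ± 0.157 and 61.2 ± 24.9 CPM (SD, n = 5 each). D4M replicates 4 and 5 were the highest for these genes and for Ifi44, another interferon-induced gene, at 20.6, 10.3, 16.4, 40.2 and 33.8 CPM in D4M. Rsad2, Ifit2 and Mx1 were higher in RET, with log2 fold changes of 1.22, 0.62 and 2.22.

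Secreted immune mediators were mostly on the side of D4M as well, with 13 of 18 tested (of 32 listed) called lower and 4 higher in RET (12 and 4 without D4M replicate 1). The monocyte attractant Ccl2 was measured at 39.1, 47.2, 47.4, 40.6 and 38.6 CPM in D4M and was at least 365-fold higher there. The alarmin Il33 was measured at 129.6, 109.7, 215, 248 and 164 CPM in D4M and 0.435, 0.891, 2.40, 1.04 and 0.849 CPM in RET, and Csf1 and Il34, which both act on the macrophage receptor Csf1r, had log2 fold changes of -2.92 and -7.80. Cxcl10, an attractant of T cells, was among the 4 members higher in RET, at 43.7 ± 6.22 CPM in RET and 6.30 ± 1.23 CPM in D4M (SD, n = 5 each).

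Growth and metabolic lists had members on both sides. Among genes of S phase and mitosis, 15 of 32 were called higher and 3 lower in RET (13 and 3 without D4M replicate 1), with a median of 0.28. Among those called higher were S phase genes, with the helicase subunit Mcm2 at 587, 602, 547, 593 and 587 CPM in RET and 177, 181, 183, 184 and 188 CPM in D4M, and Tyms and Cdt1 at log2 fold changes of 1.47 and 1.24. Mki67 and Top2a, markers of cycling cells, did not pass the test (0.03 and -0.05, limma, adjusted p = 0.86 and 0.75). Of 25 tested targets of Atf4 and amino acid stress (of 26), 14 were called higher and 8 lower in RET (13 and 8 without D4M replicate 1). Asns, which makes asparagine, had 315 ± 37.9 against 110.0 ± 19.1 CPM, and Slc7a5, an amino acid transporter, 431 ± 50.3 against 197 ± 27.7 CPM in RET and D4M (SD, n = 5 each), whereas the cystine transporter Slc7a11 was lower in RET (log2 fold change -2.61). Among glycolysis and hypoxia genes, 16 of 29 were called higher and 12 lower in RET. Ldhb, a lactate dehydrogenase chain, was measured at 203, 172, 161, 187 and 193 CPM in RET and 4.64, 5.86, 5.74, 3.95 and 4.72 CPM in D4M, while Egln3, an oxygen sensor, was 30.9-fold higher in D4M. Of 26 genes of cholesterol synthesis and uptake, 2 were called higher and 15 lower in RET (2 and 14 without D4M replicate 1, median -0.28, and -0.07 with library size alone), with Hsd17b7, an enzyme of cholesterol synthesis, 4.84-fold higher in D4M. D4M was grown in less serum than RET, and serum and line cannot be told apart.

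Hox genes, which record the position of a cell along the body axis, differed by cluster. Of 39 Hox genes 25 were tested, and 13 of these were called higher and 10 lower in RET, with a median of 0.69 (0.00 with each gene absent from a line set to its bound of 3 counts). RET expressed most of the Hoxa cluster, with Hoxa10 at 35.7, 32.04, 32.4, 31.4 and 34.5 CPM and Hoxa11 at 9.54, 11.8, 11.3, 8.74 and 10.5 CPM, against at most 0.276 CPM of Hoxa10 and at most 3 counts of Hoxa11 in D4M. RET also expressed Hoxd13, the last gene of its cluster, at 10.1 ± 0.314 CPM (SD, n = 5), at least 75.8-fold above D4M. D4M expressed genes from the middle of the other clusters, with Hoxb7 at 22.1, 23.5, 24.7, 21.9 and 20.4 CPM, Hoxd8 at 49.1, 45.7, 41.7, 46.3 and 43.6 CPM and Hoxc6 at 8.77 ± 1.53 CPM (SD, n = 5), and RET held no more than 3 counts of Hoxb7 and a mean of 0.0857 and 0.132 CPM of Hoxd8 and Hoxc6. Hoxb4 and Hoxd9 had no count in any RET library and were at least 103-fold and 91.0-fold higher in D4M. Of Y-linked genes and Xist, 4 of 5 were called lower in RET, Ddx3y having no count in RET and 56.6, 61.3, 49.5, 63.1 and 64.1 CPM in D4M and Xist at most 2 counts in any library of both lines.

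**Figure D4:**
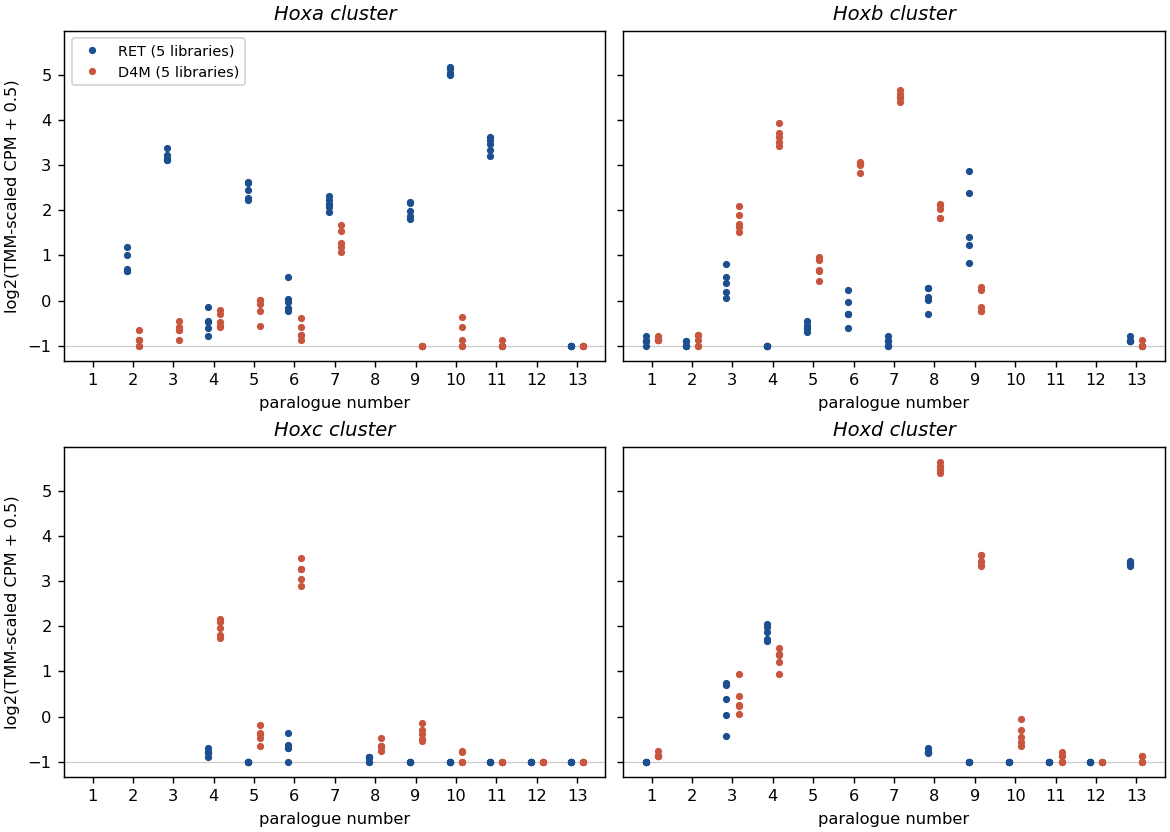
Levels of Hox genes as log2(CPM + 0.5) by cluster (panels) and paralogue number (x axis) for every library of RET (blue) and D4M (red); the grey line marks 0 counts. RET libraries lie above all D4M libraries at Hoxa2, Hoxa3, Hoxa5 to Hoxa7, Hoxa9 to Hoxa11, Hoxb9, Hoxd4 and Hoxd13, and D4M libraries at Hoxb3 to Hoxb8, Hoxc4, Hoxc6, Hoxd8 and Hoxd9.

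Chromosome 6 stood apart from the other autosomes and the X chromosome. A total of 776 genes were tested on chromosome 6, with a median log2 fold change of 1.04 (quartiles 0.17 and 1.87). Of these genes 558 (71.9%) were called higher and 127 (16.4%) lower in RET. Medians of the other autosomes and the X chromosome lay between -0.35 (chromosome 14) and 0.23 (chromosome 15). The Y chromosome had a median of -5.02 over 10 tested genes, and the mitochondrial genome -0.48 over 21. Over the 443 genes of chromosome 6 with at least 5 CPM in both lines the median was 0.94. The shift ran along the whole chromosome, with medians between 0.53 and 1.33 in each of 15 bins of 10 Mb. Against the mean of all 5 lines, the median on chromosome 6 was 0.49 in RET and 0.30 in B16F10 luc2, and -0.39 in D4M, -0.26 in HCmel12 and -0.28 in WT31, on the log2 scale. Braf, Mitf and Ret lie on this chromosome, and the log2 fold change of Braf (1.09) lies within the quartiles of its genes. The number of copies of chromosome 6 in the lines was not tested.

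**Figure D5:**
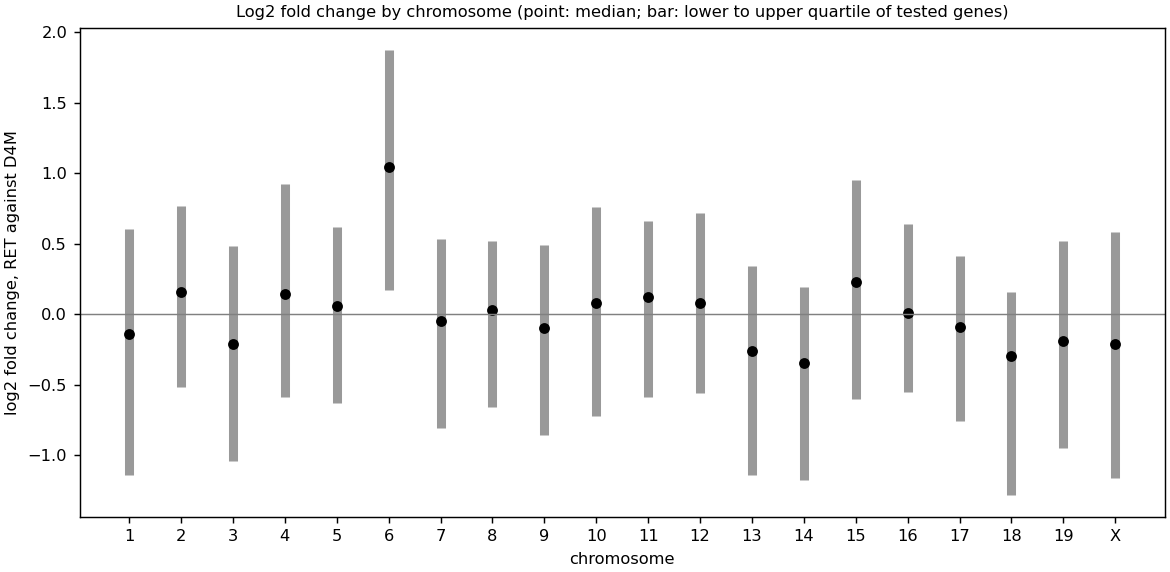
Median (points) and lower to upper quartile (bars) of the log2 fold change of RET over D4M for the tested genes of each chromosome. The median of chromosome 6 is 1.04, and those of the other autosomes and the X chromosome lie between -0.35 and 0.23.

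To see where each line stood within the series, its 5 libraries were compared with the 20 libraries of the other lines. In 2553 genes (16.7%) all 5 D4M libraries lay above, and in 1758 (11.5%) below, every library of the other 4 lines (2586 and 1808 without D4M replicate 1), against 792 (5.19%) above and 500 (3.28%) below for RET. With library size alone the order turned for D4M, with 2032 genes above and 2486 below, and for RET the counts were 986 and 383. Of the 933 genes called at least 32-fold lower in RET, D4M lay above all other lines for 779 and RET below all others for 51. Of the 482 genes called at least 32-fold higher in RET, D4M lay below all other lines for 279 and RET above all others for 110. Among calls of any size the counts were 2549 and 499 of 5846 lower genes, and 1752 and 790 of 5911 higher genes. These genes were picked by the same values. A gene absent from RET and from any other library cannot count as RET below all others, and 754 genes called lower had at most 3 counts in every RET library. Genes that set RET apart from the 4 other lines included Rhox5, a homeobox gene of the X chromosome, with 653 ± 26.6 CPM in RET and at most 2.39 CPM in any other library, and Hapln1, a link protein of hyaluronan matrices, with a mean of 78.4 CPM in RET and at most 0.873 CPM in any other library. Trim59, a ubiquitin ligase, and Lgals3, the galectin 3 gene, were nearly absent from RET alone, at no more than 0.186 and 0.277 CPM there and at least 30.97 and 10.3 CPM in every other library. These 4 genes were chosen after their values were seen. In D4M, the retinoid binding protein gene Crabp1 and the BMP antagonist Grem1 were measured at 1089, 1144, 802, 1159 and 1227 and at 794, 883, 1039, 827 and 770.4 CPM, and at no more than 0.117 CPM in any library of the other lines. Igfbp3, a binding protein of insulin-like growth factors, had the lowest fitted log2 fold change among the genes eligible to be named, with 5449, 4659.6, 5876, 5826 and 4654 CPM in D4M (chr11:7206086-7213923, reverse strand). It had no count in RET replicates 1 to 4 and 1.27 CPM in RET replicate 5, so the size and rank of this fold are not resolved. WT31 had a mean of 92.5 CPM of Igfbp3.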

How the data were processed

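RNA of 5 RET and 5 D4M cultures was analysed together with 15 libraries of the lines B16F10 luc2, HCmel12 and WT31, grouped by the cell line in the labels. Per the submitters' processing notes, the authors trimmed reads with Trim Galore 0.6.4 and assigned them to GRCm38.p6 transcripts with kallisto 0.4.6, which splits reads shared by transcripts. The study's methods give a different version number of kallisto. The authors deposited estimated counts per gene, which need not be whole, and TPM. TPM of D4M replicate 1 were not used here. Counts were scaled by TMM (edgeR 4.0.16), filtered with filterByExpr by line, and fitted with voom weights in limma 3.58.1 (R 4.3.3), with a mean per line and Benjamini-Hochberg adjustment over all 15247 of 55385 genes tested. A gene was called at an adjusted p under 0.05. The tests were checked on simulated data in which few genes changed, equally in both directions, so that this check does not cover the scaling. For edgeR's quasi-likelihood test and DESeq2 1.42.0 the counts were rounded. In a library, 3 counts were taken as the floor, which covers counting error only.

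The members and gene lists were chosen with earlier results of these data known. Named genes were the 12 highest and 12 lowest log2 fold changes with at least 5 CPM in the higher line, the 4 most different called members of each list with at least 1 CPM, the 2 most abundant uncalled members, all members of the pigment and driver lists, Gak and Srp72. The text does not print all of them, and a further allele of the D4M mice and some genes are not reported here. Other list members, the Egfr ligands and the genes of single lines were chosen after their values were seen. Alternatives were other scalings, tests, filters and thresholds, TPM, a replicate block and each library left out. Replicate numbers did not pair the samples.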

Additional observations from a re-analysis of the deposited data

Results flagged for a closer look

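In 324 groups of 5 values of named genes, the highest or lowest library was tested for a large gap to the others (Dixon's test). The chance rate of about 1 in 20 holds for normally distributed values. Counts near the floor are not so distributed, and a gene counted in only 1 library of a group passes by itself. The share that passed can therefore not be compared with this rate. In all, 24 groups (7.41%) passed. Of these 24 libraries 11 were D4M replicate 1 and 6 were RET replicate 3.

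In D4M replicate 1 each of the 11 genes was above the other D4M libraries, and 10 of them are genes that RET expresses at far higher levels. Named genes were largely chosen for their difference between the lines, so that this count depends on the choice. Mbp had 4.32 CPM there (0 to 0.133 in the other 4 libraries), Mlana 3.26 (0 to 0.128), Pmel 8.77 (0.266 to 0.724), Slc45a2 0.965 (0 to 0.0851), Mc1r 0.828 (0 to 0.132) and Unc5c 0.827 CPM (0 to 0.0851). Dnaic1, which encodes a part of ciliary dynein, had 1.33 CPM and the pore-forming Gsdmc 0.597 CPM, both with 0 in the other D4M libraries. Fkbp6 had 1.06 CPM (0 to 0.0851) and Pianp 1.33 CPM (0 to 0.0890). Pspn, which encodes the Ret family ligand persephin, had 0.505 CPM (0.213 to 0.266), and its mean in RET was 0.639 CPM. The source of this RNA was not tested.

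In RET replicate 3, Fos was highest at 3.70 CPM (2.25 to 2.43 in the other RET libraries), as were Erbb3 at 112 (91.8 to 96.0) and Itga3 at 1.496 CPM (0.4001 to 0.594). The metallothioneins Mt1 and Mt2 were lowest there at 472 (583 to 627) and 283 CPM (365 to 375), and so was Mcm2 at 547 CPM (587 to 602). In RET replicate 5, Igfbp3 had 1.27 CPM with 0 in the other RET libraries, and Thbs2 had 0.386 CPM (0 to 0.0800).

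Among the other D4M libraries, Crabp1 was lowest in replicate 3 at 802 CPM (1089 to 1227) and Lamb2 highest at 42.6 CPM (31.3 to 33.4). Cd93 and Angptl4 were lowest in replicate 2 at 487 (604 to 643) and 2.62 CPM (8.95 to 11.3), and Sema3c in replicate 4 at 8.30 CPM (13.59 to 15.02).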

How the results depend on the processing

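Leaving out each library in turn gave between 5768 and 5918 genes higher and between 5795 and 5879 lower in RET. A limit of 2-fold gave 2809 higher and 3166 lower, and no filter on low counts 6785 higher and 9019 lower among 34969 tested genes. Library size alone moved 50.3% of calls being higher in RET to 60.2%, the median over all genes from 0.01 to 0.21 and that of chromosome 6 from 1.04 to 1.24 (1.02 without D4M replicate 1). TPM gave 6402 higher and 4850 lower with a pseudocount of 0.1 and 6298 and 4803 with 1, edgeR 5916 and 5851, and DESeq2 5705 and 6031. With library size alone, the log2 fold changes of Cdk4 (0.17), Araf (0.19) and Srp72 (0.01) turned positive (limma, adjusted p = 0.00053, 0.0033 and 0.93), and Nf1 became 0.42 and 0.40 with TPM. The cause was not tested. ERK genes called higher in RET were 2 instead of 1 without D4M replicate 2 or RET replicate 5, and cholesterol genes 1 instead of 2 without D4M replicate 3 or 4. Cadherins called lower were 3 instead of 5 with a mean of at least 10 counts and 9 with no filter, and ERK genes called higher were 3 with library size alone. DESeq2 gave no adjusted p for Tyrp1, Dct and Pmel. Of 4559 single gene values 4462 kept direction and call, and of 1408 list counts 297 differed, 45 by more than 1.5 times.

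Same-numbered RET and D4M libraries deviated from their line means with correlations of 0.0320, 0.0787, -0.0199, 0.00579 and 0.0805, so the number was not taken as a pairing. With the replicate block 5920 genes were higher and 5866 lower in RET.

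At these depths, levels under 3 counts per library are unresolved, and line, medium and culture history cannot be told apart with 1 line per genotype.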

Other observations

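Among the genes with the most extreme log2 fold changes were several that belong to none of the groups above. In RET, Tspan10, a tetraspanin of pigment cells, was measured at 228, 172, 165, 221 and 192 CPM and in D4M at no more than 0.413 CPM. Pianp, a ligand of a paired inhibitory receptor, was measured at 272, 262, 235, 246 and 232 CPM in RET and 1.33, 0, 0.0890, 0.0444 and 0 CPM in D4M, and Dnaic1 at 415 ± 14.6 CPM (SD, n = 5) in RET and only in replicate 1 of D4M. In D4M, Nrn1, which encodes neuritin, a membrane protein of growing neurites, was measured at 373, 373, 467, 312 and 345 CPM and in RET at 0, 0, 0, 0 and 0.116 CPM. Cd93, a surface receptor known from endothelial and myeloid cells, was measured at 604, 487, 638, 635 and 643 CPM in D4M and 0, 0.0371, 0.123, 0 and 0.161 CPM in RET, while the endothelial markers Pecam1 and Cdh5 had means of 0.789 and 0.158 CPM in D4M. Tenm3, a teneurin of neuronal wiring, and Pxdn, a peroxidase that crosslinks collagen IV, had means of 471 ± 53.4 and 546 ± 45.1 CPM in D4M against 0.00771 ± 0.0172 and 0.0154 ± 0.0345 CPM in RET (SD, n = 5 each).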
